A study of Mus musculus with 12 samples.

Results

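The numbered Zfp genes of mouse chromosome 17 encode zinc finger proteins, and 42 of them were followed here through 3 ORFtag screens. They are the genes of the deposited per-screen tables that have Zfp, a number and at most a letter from a to d as their name, and whose insertions in unsorted cells were listed on chromosome 17. Zfp57 and Zfp598 were left out. The members make up 42 of 20409 genes in those tables, and all 42 held at least 1 insertion in unsorted cells.

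Most proteins of this family bind DNA through a row of zinc fingers of the C2H2 type, and many carry a KRAB domain near the N terminus. The KRAB domain recruits Trim28 (also called KAP1), which brings the histone methyltransferase Setdb1, heterochromatin protein 1 and other silencing factors to the bound DNA. The family has expanded in rodents as clusters of neighbouring copies, and many of its proteins bind retroelements in embryonic stem cells.

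ORFtag inserts a retroviral cassette with a PGK promoter, a neomycin resistance gene, an IRES, a tag and a splice donor into the genome, so that the tag is spliced to the next exon downstream and the endogenous protein is made with the tag near its N terminus. Cassettes for all 3 reading frames were pooled. The cells were diploid wild-type mouse embryonic stem cells (mESC), and each screen used 1 clonal reporter line, so clone and screen cannot be told apart. The activator and repressor screens used TetR as the tag, and the reporter lay at a stably expressed site on chromosome 15. The activator line carried 7xTetO-pMYLPF-Puro-IRES-GFP and was sorted for GFP-positive cells. The repressor line carried pEF1-BFP-7xTetO-pPGK-Puro-IRES-GFP and was sorted for GFP-negative cells. The PTGR screen, for proteins that regulate genes after transcription, used the λN tag and a randomly integrated Puro-IRES-GFP-10xBoxB reporter, and its cells were sorted for low GFP and, after removal of the boxB sites, for high GFP. All libraries came from G418-selected cells, and each screen had 2 sorted and 2 unsorted libraries, 12 in all. The files hold insertion positions in genomic DNA and no RNA level, so the cell type could not be checked by markers, and whether a tagged protein was made was not measured.

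The sorted libraries held 14705 to 60980 counted insertions and the unsorted libraries 54088 to 233799. An insertion was counted once per position and library when it lay at most 200 kb from its assigned exon. Of the distinct positions in the repressor unsorted libraries, 1.20% were also listed in a repressor sorted library, and those of the 8 hits are given below. Per the study's methods, the numbered libraries of a screen are biological replicates, each with its own transduction. The repressor sorted replicates still had many positions in common: 18.2% of those in replicate 1 were also listed in replicate 2. That overlap was 1.76% for the activator screen and 0.546% for the PTGR screen. At Zfp870, 64 of 353 distinct repressor sorted positions were listed in both sorted libraries, and at Zfp119b 47 of 170. With positions listed in both sorted libraries of a screen left out, the 8 repressor hits reported here were still called and Zfp563 became a hit. Only Fisher's test was repeated in this way, so the edgeR values and the spreads between replicates given below include such positions.

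The place where the tag joins each gene was nearly always the same. Of 2836 insertions at the members over all libraries, 2807 (98.98%) were assigned to exon 2, and the acceptor of all 42 members ended in AG. The acceptors that carry the results were read from the RefSeq genome GRCm38.p6 (the same assembly as mm10), and are given with 20 bases of intron and 10 bases of exon in the direction of the gene. The capitals mark the AG at the end of the intron. The first 9 belong to members that were enriched in the repressor screen and the last 3 to members with many insertions in unsorted cells that were not.

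Zfp870, chr17:32886074-32886103, minus strand: atatatgtgtgtgcttttAGgagtcagtga
Zfp119b, chr17:55941303-55941332, minus strand: acattcatcgtatactttAGgatgcagtga
Zfp960, chr17:17085501-17085530, plus strand: gtatacatgggatgttttAGaacgcagtga
Zfp97, chr17:17142716-17142745, plus strand: gtatacatgggatgttttAGaacgcagtga
Zfp952, chr17:33001604-33001633, plus strand: tatcgtgtgggctcttgcAGgagcctgtga
Zfp811, chr17:32800929-32800958, minus strand: ttgcatgtgggctctttcAGgagctggtga
Zfp472, chr17:32975894-32975923, plus strand: atgtatgtggattcttttAGgagccagtga
Zfp799, chr17:32822191-32822220, minus strand: aatattgtgggcttttttAGgagtcagtga
Zfp563, chr17:33102211-33102240, plus strand: cctgatatggcatattttAGgactgtctaa
Zfp13, chr17:23585565-23585594, minus strand: attactttcctcttttccAGgttcttggct
Zfp945, chr17:22865327-22865356, minus strand: actctcttctccacatgcAGgtccccactg
Zfp160, chr17:21011656-21011685, plus strand: tgtatgcttttggtattcAGgattgacttc

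In the repressor screen the members took up 217 and 226 of every 10000 insertions in the sorted libraries, against 21.9 and 19.9 in the unsorted libraries of the same screen. In the activator screen they took up 10.3 and 4.76 in sorted and 13.9 and 16.1 in unsorted libraries. In the PTGR screen the shares were 12.3 and 17.6 in sorted and 16.9 and 18.3 in unsorted libraries. The repressor sorted libraries therefore stood above all 10 other libraries, and an exact permutation test of 2 against 2 libraries cannot go below a two-sided p of 0.333. The repressor share rested on few genes: Zfp870 held 417 of the 827 sorted insertions at members.

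Each gene was tested with a one-sided Fisher's exact test of the summed sorted insertions against the summed insertions of all 6 unsorted libraries (the background), and p-values were adjusted (Benjamini-Hochberg) over every gene that had 3 or more sorted insertions. All 3 screens share these 6 background libraries. Genes were called hits at a log2 odds ratio of 1 or more and an adjusted p under 0.001. In the repressor screen, 8 members were hits: Zfp870, Zfp119b, Zfp960, Zfp952, Zfp811, Zfp472, Zfp97 and Zfp799. Of all 2346 genes tested in that screen, 192 (8.18%) were hits. Only 12 members reached the minimum of 3 sorted insertions, 13 had 1 or 2 and 17 had none, so nothing is known from the test about the other 30. The median log2 odds ratio was 3.81 over the 12 tested members and -0.39 over all genes tested, and the members reached the test through their sorted insertions.

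**Figure D1:**
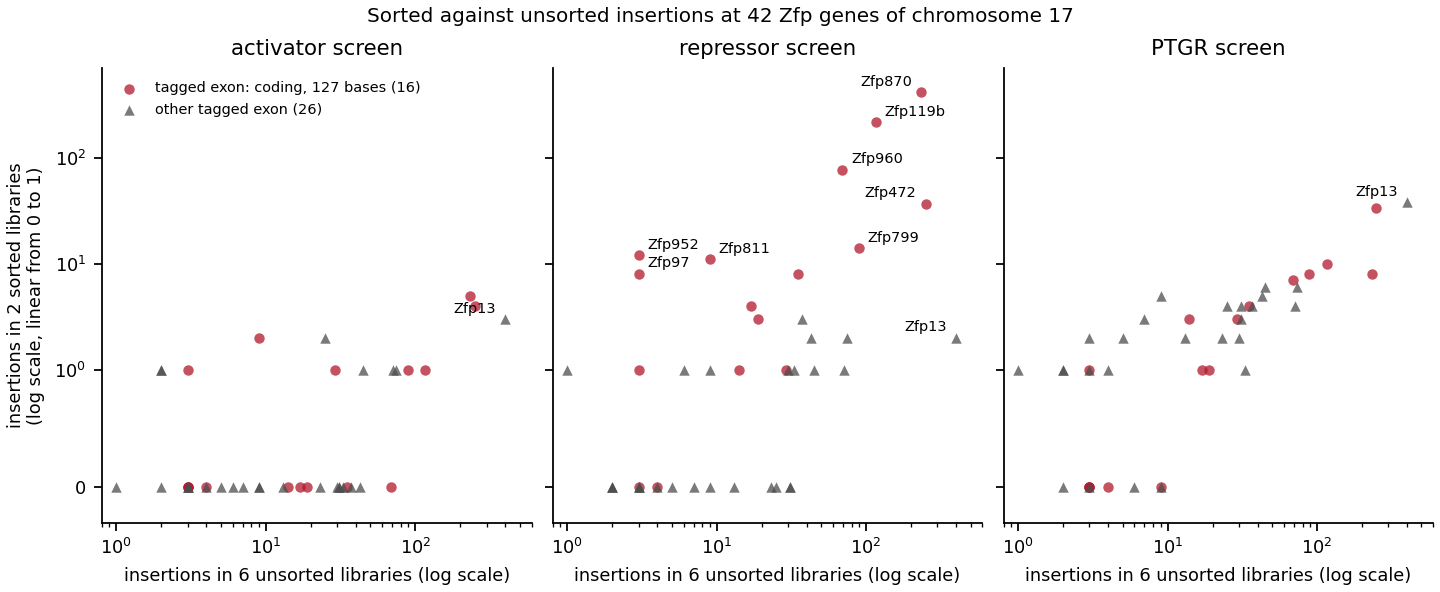
Insertions at each of the 42 members summed over the 6 unsorted libraries (horizontal, log scale) and over the 2 sorted libraries of each screen (vertical, log scale above 1 and linear below). The 8 hits are named in the repressor panel, all of them with a coding 127-base exon (circles), and Zfp13 is named in each panel. No member was a hit in the activator and PTGR panels.

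Zfp870 held the most sorted insertions of any member. It had 236 and 181 insertions in the repressor sorted libraries and 66 and 69 in the unsorted libraries of that screen. Both sorted libraries were far above the rest despite their lower depth: per 10000 insertions the level was 113 ± 9.23 sorted and 3.84 ± 0.0795 unsorted (SD, n = 2 each). The log2 odds ratio against the 234 background insertions was 5.62 ± 0.12 (SE from counts alone, as for all odds ratios here), with an adjusted p too small to be represented as a number. By edgeR's quasi-likelihood test of 2 sorted against 2 unsorted libraries of the screen, the log2 fold change was 5.15 ± 0.30 (SE, adjusted p = 2.55e-63). Its predicted protein of 561 residues matched a KRAB pattern and held 10 matches to the C2H2 zinc finger pattern.

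Zfp119b lies in a group of 3 close copies at the distal end of the clusters, next to Zfp119a and Zfp959. It had 121 and 96 insertions in the repressor sorted libraries and 49 and 34 in the unsorted ones, or 58.7 ± 6.22 against 2.37 ± 0.629 per 10000 (SD, n = 2 each). The sorted and unsorted libraries did not overlap, and how often this holds over all genes was not counted. The log2 odds ratio was 5.68 ± 0.17 (adjusted p = 1.56e-223) and the edgeR log2 fold change 4.91 ± 0.27 (adjusted p = 1.02e-70). Its neighbours held far fewer sorted insertions. Zfp119a had 3 and 1 (adjusted p = 0.0533 by Fisher's exact test) and Zfp959 had 3 over both libraries (adjusted p = 0.29).

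At both of these genes, part of the unsorted signal lay at the same positions as the sorted signal. Of 120 distinct positions at Zfp870 in the repressor unsorted libraries, 68 (56.7%) were also listed in a repressor sorted library, and at Zfp119b 37 of 72 (51.4%) were. At the other hits, such positions were 4 of 29 at Zfp960, 6 of 71 at Zfp472 and 4 of 41 at Zfp799. They were 3 of 6 at Zfp811, 1 of 2 at Zfp952 and 3 of 3 at Zfp97. These 3 positions were the whole background of Zfp97. The unsorted libraries of the repressor screen also held more insertions at both genes than those of the other screens. At Zfp870 they held 3.79 and 3.90 per 10000 insertions, against 1.35 to 1.66 in the other screens. At Zfp119b they held 2.81 and 1.92 per 10000, against 0.37 to 0.64. With the 4 unsorted libraries of the other screens as background, the 8 hits were the same. With all positions that were listed in both sorted and unsorted libraries of the screen left out, 7 hits were the same and Zfp799 was lost. The part of these shared positions in the results was otherwise not tested.

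Zfp960 and Zfp97 are the 2 members of the most proximal cluster. Their 127-base exon 2 and the 30 bases shown above were identical, which was the closest pair among the 120 pairs of such exons (median identity 76.8%, lowest 65.4%). Zfp960 had 51 and 26 insertions in the repressor sorted libraries and 15 and 14 in the unsorted ones, 20.0 ± 4.10 against 0.826 ± 0.0491 per 10000 (SD, n = 2 each). Its log2 odds ratio was 4.93 ± 0.24 (adjusted p = 2.45e-69) and its edgeR log2 fold change 4.92 ± 0.33 (adjusted p = 2.15e-47). Zfp97 had 4 and 4 insertions in the sorted libraries and 1 and 2 in the unsorted ones. With only 3 background insertions, its log2 odds ratio of 6.19 had a wide 95% interval, from 4.27 to 8.10 (adjusted p = 5.69e-09). How far reads from copies this similar could be placed apart was not tested.

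Zfp952, Zfp811, Zfp472 and Zfp799 lie with Zfp870 and Zfp563 in a cluster of 12 members. Zfp952 had 9 and 3 sorted insertions against 1 and 1 unsorted, and a log2 odds ratio of 6.77 (95% interval 4.94 to 8.60, adjusted p = 3.05e-14) that rests on 3 background insertions. Zfp811 had 6 and 5 sorted insertions against 4 and 3 unsorted, with a log2 odds ratio of 5.06 ± 0.65 (adjusted p = 2.23e-10). Both genes were low in every unsorted library, so their sizes are loosely set. Per 10000 insertions the sorted levels were 3.01 ± 1.46 for Zfp952 and 2.99 ± 0.420 for Zfp811 (SD, n = 2 each).

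Zfp472 and Zfp799 were enriched less. Zfp472 had 19 and 18 sorted against 44 and 31 unsorted insertions, 10.2 ± 2.34 against 2.14 ± 0.546 per 10000 (SD, n = 2 each), and a log2 odds ratio of 2.01 ± 0.25 (adjusted p = 2.90e-10). Zfp799 had 12 and 2 sorted against 26 and 17 unsorted insertions, with a log2 odds ratio of 2.10 ± 0.41 (adjusted p = 2.16e-04). The replicates of Zfp799 differed: its sorted level was 3.35 ± 2.88 per 10000 (SD, n = 2), and without the first sorted library it had too few insertions to be tested. Against the unsorted libraries of the repressor screen alone, Zfp799 was no hit.

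Zfp563 missed the threshold of a hit. It had 6 and 2 sorted against 6 and 7 unsorted insertions (log2 odds ratio 2.64 ± 0.57, adjusted p = 0.00141), as did 59 (2.51%) of the 2346 genes tested that had an adjusted p under 0.05 but were no hits. The edgeR test called it higher (log2 fold change 2.79 ± 0.83, adjusted p = 0.0229), as it did the 8 hits, so 9 of the 21 members it tested in the repressor screen were higher. With the replicate number as a block, Zfp563 (adjusted p = 0.18) and Zfp799 (adjusted p = 0.0815) were not called by edgeR, which left 7 members. Over all 7688 genes tested by edgeR, 198 (2.58%) were higher and 88 (1.14%) lower. Of the 21 members, Zfp119a, Zfp811, Zfp952 and Zfp97 passed the minimum of 10 insertions only through their sorted insertions, and the last 3 of these were among those called.

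**Figure D2:**
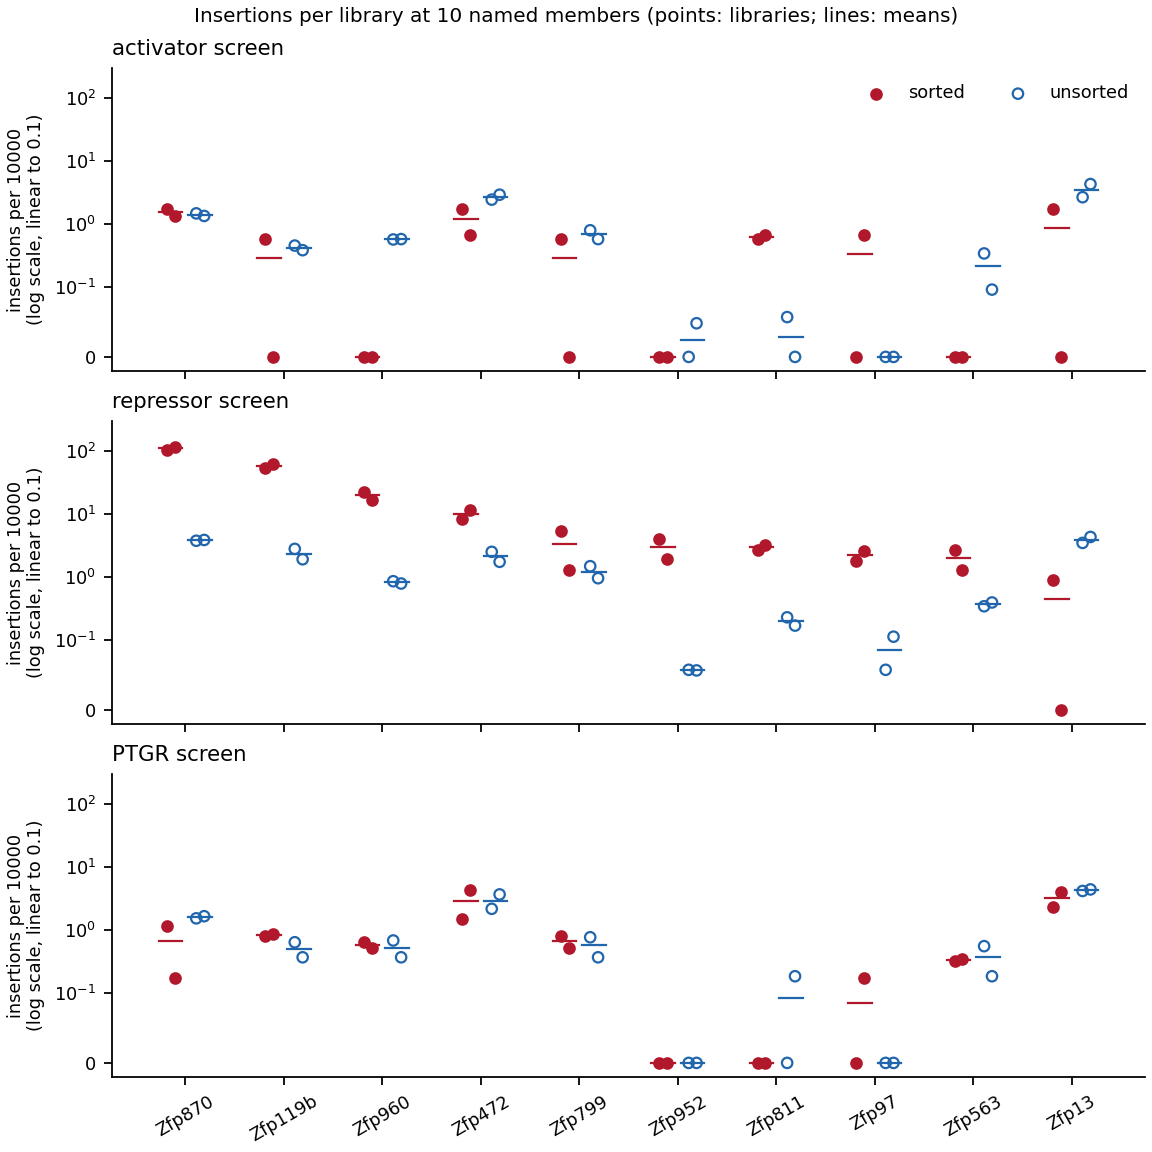
Insertions per 10000 counted insertions of each library (vertical, log scale above 0.1 and linear below) at the 8 hits, Zfp563 and Zfp13, with points for libraries and lines for means of 2. In the repressor panel the sorted points of Zfp870, Zfp119b and Zfp960 lie far above their unsorted points, and Zfp13 shows the opposite order.

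Zfp13 went the other way. It held the most background insertions of any member, 397, but only 2 and 0 in the repressor sorted libraries against 61 and 77 in the unsorted ones. The edgeR log2 fold change was -2.55 ± 0.81 (adjusted p = 0.0436), the only member called lower. Over all genes tested by edgeR in this screen the median log2 fold change was -0.99, so the typical gene was also lower on this scale. The lower call of Zfp13 was lost with the replicate number as a block (log2 fold change -2.54 ± 0.85, adjusted p = 0.0836) and with DESeq2. In the activator screen Zfp13 had 3 and 0 sorted against 47 and 90 unsorted insertions (log2 fold change -1.95 ± 0.74, adjusted p = 0.27). The median log2 fold change over all genes tested there was -0.72. Its PTGR counts were 14 and 24 sorted against 98 and 24 unsorted insertions. Zfp13 had no match to the KRAB patterns used here, which does not show that it lacks the domain.

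The hits shared a feature of the exon that the tag joins. In 16 members that exon is 127 bases long, lies downstream of a coding first exon, begins on the first base of a codon and contains the KRAB match. All 8 hits and Zfp563 are among these 16, as are Zfp101, Zfp119a, Zfp763, Zfp81, Zfp871, Zfp955a and Zfp959. In the other 26 members, the tagged exon begins upstream of the start codon in all but Zfp318, and 19 of the 26 match the KRAB pattern further downstream. All 16 lie in the 3 clusters that hold hits, where Zfp414 is the only other member, so that exon and place on the chromosome cannot be told apart here. This grouping was made after the values were seen, so it is given as a description without a test.

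Unsorted cells held the tag at both groups about equally often. The 16 members took up 8.78 and the 26 others 8.89 of every 10000 background insertions. In the repressor sorted libraries the 16 took up 212 and 222 per 10000, and the 26 others 4.94 and 3.29. The 26 others thus held 16 sorted insertions in all against 811 at the 16 members. Without Zfp870 and Zfp119b the other 14 of the 16 still took up 47.2 per 10000 sorted and 5.35 per 10000 background insertions. Without Zfp13 the 25 others took up 3.74 per 10000 sorted and 5.01 per 10000 background insertions. The near-equal background shares thus rested in part on Zfp13.

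**Figure D3:**
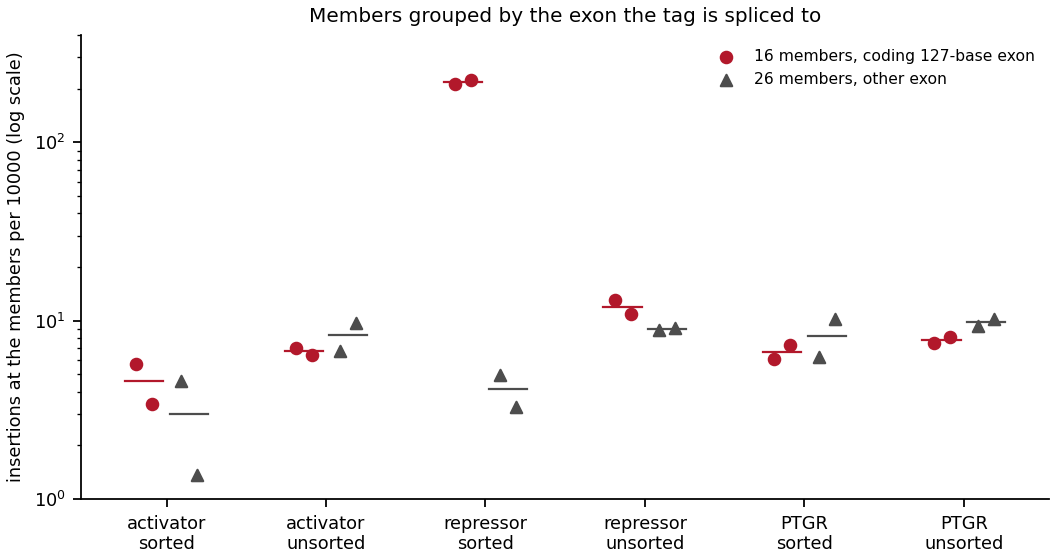
Insertions per 10000 counted insertions (log scale) in each of the 12 libraries, summed over the 16 members with a coding 127-base exon (circles) and over the 26 other members (triangles), with lines for means of 2. The groups lie furthest apart in the repressor sorted libraries, where the circles are at 212 and 222 and the triangles at 4.94 and 3.29. Elsewhere the gap is smaller and goes either way, as with 3.40 against 1.36 in activator sorted replicate 2 and 6.41 against 9.73 in activator unsorted replicate 2.

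A KRAB match alone did not mark the enriched members. Of 35 members with the match, the 19 whose tagged exon begins outside the coding sequence held 12 repressor sorted insertions and 368 background insertions, or 3.20 against 3.60 per 10000. These 19 lie in the largest cluster, which runs from Zfp160 to Zfp13 and holds 23 members. Zfp160 was the only member there with enough insertions to be tested, with 3 sorted and 37 background insertions (log2 odds ratio 1.15 ± 0.87, adjusted p = 0.822). All 37 background insertions of Zfp160 were assigned to exon 2, but its 3 repressor sorted insertions, at 2 distinct positions, lay past that exon and were assigned to exon 3. In the repressor screen, no member of the 26 was therefore tested on insertions at the tagged exon described here. In 15 of the 19, the bases between the acceptor and the start codon hold at least 1 stop codon in the frame of the protein. The 4 without such a stop codon are Zfp53, Zfp758, Zfp943 and Zfp995, and of these Zfp943 had 71 background insertions and 1 repressor sorted insertion. The 8 members with a coding 127-base exon that were no hits held 124 background and 18 repressor sorted insertions in all, or 1.21 and 4.80 per 10000. Their background insertions numbered 3 to 35 (median 15.5), against 3 to 250 (median 79.0) at the 8 hits, so the ranges overlapped.

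The same split was read for the numbered Zfp genes on other chromosomes, which played no part in making it. There, 66 genes had a coding 127-base exon and took up 407 of 10000 repressor sorted insertions against 22.8 of 10000 background insertions, and 26 of the 34 tested were hits. The 264 others took up 526 against 169.9 and had 21 hits among 63 tested. Over all genes tested in the repressor screen, 8.18% were hits. The chromosomes were not alike. On chromosome 13 the share of the 127-base group was 112 sorted against 7.31 background per 10000, with hits at 12 of 12 genes tested, and that of the others 182 against 15.3, with hits at 4 of 8. On chromosome 7 the shares were 23.5 against 4.99 (4 of 8 tested) and 146 against 45.5 (8 of 19 tested). Over all other chromosomes they were 271 against 10.5 (10 of 14 tested) and 199 against 109 (9 of 36 tested). Genes outside the 127-base group were thus also hits elsewhere, and since only 1 of the 26 such members on chromosome 17 was tested, chromosome 17 was not shown to differ.

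By position, the hits fell in 3 of the 6 places where members lie. In the proximal cluster, both members (Zfp960 and Zfp97) were tested and were hits. From Zfp871 to Zfp414, 6 of the 12 members were tested and 5 were hits. In the distal cluster, all 3 were tested and 1 was a hit. Of all genes tested, 8.18% were hits. None of the 23 members from Zfp160 to Zfp13 was a hit, but only 1 of them was tested, and Zfp523 and Zfp318 were not tested. The places were therefore not shown to differ. The 24 genes of other families that lie inside these clusters had no hit, and none of them had enough sorted insertions to be tested.

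The distance from the insertion to the exon differed among the hits. At Zfp870 the median distance was 11.7 kb both for the 417 repressor sorted and for the 234 background insertions, and at Zfp119b it was 10.2 and 10.9 kb. At Zfp960 the median was 30.5 kb sorted and 134.7 kb background: 40 of 77 sorted insertions but 14 of 69 background insertions lay within 50 kb. At Zfp799 all 14 sorted insertions lay within 50 kb, as against 19 of 89 background insertions. Insertions close to the exon were thus the larger part of the sorted signal at these genes.

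Zfp472 showed the reverse. Its sorted insertions lay at a median of 135 kb and its background insertions at 81.4 kb, and only 2 of the 37 sorted insertions lay within 50 kb. On the same strand, GENCODE places 5 other genes between the farthest insertion and exon 2 of Zfp472, of which 2 are unprocessed pseudogenes and none is protein-coding. Upstream of the end of the pseudogene nearer to Zfp472 lay 33 of 37 sorted insertions (89.2%) and 26 of 250 background insertions (10.4%). With insertions limited to 50 kb, Zfp472 had too few to be tested and Zfp563 became a hit. Whether transcripts from these insertions reach Zfp472 was not measured.

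**Figure D4:**
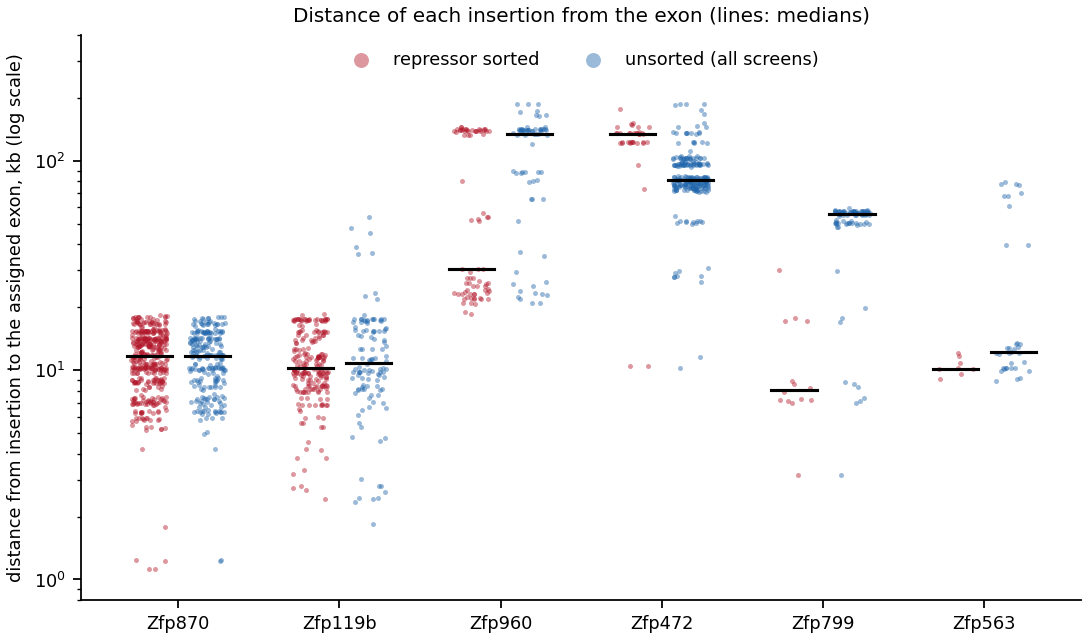
Distance in kb (log scale) from each insertion to the exon it was assigned to, for 6 members, in the repressor sorted libraries and in the 6 unsorted libraries together; lines are medians. The medians are alike at Zfp870 and Zfp119b, shorter in sorted cells at Zfp960 and Zfp799, and longer in sorted cells at Zfp472.

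No member was a hit in the activator screen, where 4.64% of 2842 genes tested were hits. Only Zfp472, Zfp870 and Zfp13 reached 3 sorted insertions, with log2 odds ratios from -2.06 to -0.56, and 28 members had none. By edgeR, 0 of 14 members tested were called in either direction, with 1 at an unadjusted p below 0.05 (Zfp13, lower), while 1.54% of 8000 genes were higher and 0.100% lower. Zfp960 had 0 of 32102 activator sorted insertions, which allows up to 3 counts or 0.935 per 10000, above its background level of 0.675, so a lower level was not detectable at this depth.

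No member was a hit in the PTGR screen either, where 0.666% of 9303 genes tested were. The 19 members tested had log2 odds ratios from -1.77 (Zfp870, 7 and 1 sorted insertions) to 2.25 (Zfp318), and the lowest adjusted p was 0.251. By edgeR, 0 of 18 members tested were called and 0 had an unadjusted p below 0.05, while 0.342% of 8491 genes were higher and 0.00% lower. The median log2 odds ratio was -0.11 over the members tested and 0.14 over all genes tested.

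The difference between screens was tested as an interaction in 1 edgeR fit of all 12 libraries. The change in the repressor screen was above the change in the activator screen for Zfp870 (adjusted p = 1.81e-13), Zfp960 (adjusted p = 2.34e-07), Zfp119b (adjusted p = 5.23e-05) and Zfp472 (adjusted p = 6.79e-05), 4 of 29 members tested, against 0.882% of 12809 genes. It was above the change in the PTGR screen for the same 4 genes, with adjusted p-values of 7.11e-23, 1.88e-07, 6.50e-07 and 0.00742, against 0.929% of 12809 genes. For Zfp870 the log2 change in the repressor screen exceeded that in the activator screen by 5.02 ± 0.62 and that in the PTGR screen by 6.10 ± 0.58 (SE). The other hits were not shown to differ between screens.

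Because the authors' lists were also made with the strand reversed, insertions that point away from a gene could be tested the same way. In the repressor screen, 3 members were hits for reversed insertions, against 5.61% of 2229 genes. They were Zfp472 (442 insertions), Zfp799 (33) and Zfp763 (8). All of these insertions were also sense insertions of neighbours on the other strand. Those at Zfp472 belonged to Zfp870 (417), Zfp799 (14) and Zfp811 (11), those at Zfp799 to Zfp472, and those at Zfp763 to Zfp563. The only other members tested, Zfp959 and Zfp119a, were no hits (adjusted p = 0.0053 and 0.349 by Fisher's exact test). Zfp870, Zfp119b and Zfp960 each had 1 reversed sorted insertion. In the activator screen 0 of 3 members tested were reversed hits, against 3.14% of 2706 genes, and in the PTGR screen 0 of 16, against 0.500% of 9204 genes.

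The proteins that KRAB zinc finger proteins are known to work through were read in the same screens. Of 17 genes of the KRAB silencing pathway, 11 of the 14 tested were hits in the repressor screen, against 8.18% of all genes tested. They were Trim28, Setdb1 and its partner Atf7ip, Cbx1, Cbx3, Cbx5, Morc3, Smarcad1, Chd3, Chd4 and Sumo2. The study had already reported Trim28, heterochromatin protein 1 genes and methyltransferases of H3K9 as repressor hits, and the list was chosen with earlier results known. The share of hits in the list is therefore a description. Trim28, the co-repressor bound by the KRAB domain, had 633 sorted and 676 background insertions (log2 odds ratio 4.70 ± 0.08). Setdb1, which methylates histone H3 on lysine 9, had 37 and 25 (5.34 ± 0.37, adjusted p = 3.42e-36). Cbx5, a heterochromatin protein 1, had 112 and 147 (4.38 ± 0.18, adjusted p = 2.48e-88). The 3 tested genes that were no hits were the DNA methyltransferase Dnmt3b (log2 odds ratio -1.09), Uhrf1 (-0.98) and the histone deacetylase Hdac2 (-0.96), and Dnmt1, Dnmt3a and Hdac1 had too few sorted insertions to be tested. In the activator screen 0 of 8 tested were hits, against 4.64% of all genes tested. In the PTGR screen 1 of 15 was, against 0.666% of all genes tested: Trim28, with 309 sorted insertions (log2 odds ratio 1.97 ± 0.10, adjusted p = 1.59e-68). Insertions at Trim28 that point away from the gene were also enriched in the PTGR screen, with 218 sorted and 477 background insertions (log2 odds ratio 1.98 ± 0.12, adjusted p = 2.04e-48). In the repressor screen there were 59 such sorted insertions (log2 odds ratio 2.02 ± 0.20, adjusted p = 4.71e-16), below the value for sense insertions.

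The number of insertions in unsorted cells varied widely among the members. They held 1 to 397 background insertions with a median of 15.5, against a median of 19 over the 18268 genes with any. After Zfp13, the most were at Zfp472 (250), Zfp870 (234), Zfp119b (116) and Zfp799 (89). Zfp948 held 1 and Zfp414, Zfp983 and Zfp994 held 2 each. Of the 42 members, 19 had fewer than 10, and for these the data allow no statement on a lower level in sorted cells.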

How the data were processed

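The authors trimmed reads with Trim Galore 0.6.0, aligned them to mm10 with Bowtie2, removed duplicates and poorly mapped reads with SAMtools 1.9, and gave every insertion the closest exon downstream of it, first exons excepted, of a protein-coding gene. The deposited lists give positions with exon number and distance (other values), with no read counts. The deposited per-screen tables hold counts summed over libraries by the authors, and their odds ratios, adjusted p-values and hit calls were not used. Of the 42 members, the sorted counts recomputed here equalled the deposited counts for 42 in the activator, 42 in the repressor and 32 in the PTGR table, where repeated rows had been counted.

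Here each position was counted once per library; 100% of positions were repeated in the repressor unsorted libraries and 12.7% in PTGR sorted replicate 2. Tests were Fisher's exact test (scipy 1.17.1) and the quasi-likelihood test of edgeR 4.0.16 (TMM, at least 10 insertions over the libraries fitted, adjusted p below 0.05). Both were tested on simulated data. Of 100 genes raised 16-fold in the repressor screen, Fisher's test called 90 and edgeR 69. Of 100 raised 4-fold, Fisher's test called 19 and edgeR 2, so changes of that size were mostly missed. Only the data simulated for edgeR held spread between libraries beyond counting error, so these numbers do not compare the tests. They were also not split by the background insertions of the raised genes. The rates may therefore not hold for members with few background insertions, and 19 members had fewer than 10. The summed test leaves out the spread between replicates. The SE of an edgeR log2 change was not fitted: it is the absolute change divided by the square root of the F statistic of the test. Per the study's methods, unsorted and sorted cells were taken from the same transduced pool, so equal numbers were read as pairs and edgeR was also run with the number as a block. Sorted libraries shared more positions with the unsorted library of their own number (activator 4.96% and 19.5%, PTGR 18.2% and 6.76%) than with the other (2.25%, 1.46%, 0.342% and 1.79%), but repressor sorted replicate 1 shared 8.17% with its own and 9.86% with the other, and replicate 2 shared 8.23% and 5.03%. Same-numbered libraries deviated together with a correlation of 0.046, 0.00084 and 0.19 in the activator, repressor and PTGR screens. Intervals are at 95% and, like the limit of 3 counts for a count of 0, cover counting error only. Exons and KRAB and zinc finger patterns were read from GENCODE vM21 and the GRCm38.p6 sequence, not from the authors' annotation release. The KRAB patterns are short, so a domain that departs from them is missed. The alternatives were another background, minimum, distance, threshold, normalization, tool (DESeq2 1.42.0), replicate block and each library left out. Named are the hits, other members called by edgeR or with a Fisher adjusted p below 0.05, the 5 members with the most background insertions and those with up to 2. Other members, and the grouping by exon, were chosen after their values were seen. One gene of the KRAB pathway list is not reported here. The members and lists were chosen with earlier results of these data known.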

Additional observations from a re-analysis of the deposited data

Results flagged for a closer look

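The change from unsorted to sorted cells at 4 members differed between screens by the interaction test of edgeR across all 12 libraries. Compared with the activator screen, the repressor screen was higher at Zfp870 (adjusted p = 1.81e-13), Zfp960 (2.34e-07), Zfp119b (5.23e-05) and Zfp472 (6.79e-05). Compared with the PTGR screen, it was higher at Zfp870 (7.11e-23), Zfp960 (1.88e-07), Zfp119b (6.50e-07) and Zfp472 (0.00742). In each case both repressor sorted libraries were above both repressor unsorted libraries per 10000 insertions. This order adds no support, since the genes were picked for a higher change in the repressor screen, and its share over all genes was not counted. The size of the difference at Zfp960 against the activator screen is not given, since that gene had no activator sorted insertion. At Zfp472, 33 of the 37 sorted insertions lay upstream of the end of an unprocessed pseudogene on the same strand; the part of this position in the result was not tested. The activator screen also differed from the repressor screen in reporter and clone, and the PTGR screen in tag, reporter, clone and repeated sorting. These differences cannot be told apart from the selection.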

How the results depend on the processing

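The count of repressor hits among members ranged from 7 to 9 over 14 alternatives (7 to 8 with a library left out), and the counts of 0 in the activator and PTGR screens stayed at 0 in all 14 each. Zfp870, Zfp119b, Zfp960, Zfp952 and Zfp811 were hits in all 14, and Zfp97 in all but the minimum of 10 sorted insertions. Zfp799 was no hit against only the repressor unsorted libraries, with positions shared by sorted and unsorted libraries left out (an alternative chosen after seeing the data, as were the background of the other screens and leaving out positions in both sorted libraries) or without the first sorted library, and Zfp472 could not be tested within 50 kb. The repressor edgeR count of 9 fell to 3 (Zfp870, Zfp119b and Zfp960) when all 39 members with at least 1 insertion were tested, was 6 within 50 kb and 10 with DESeq2, and ranged from 5, without the first sorted library, to 8 with a library left out; a lone sample is then taken to vary like the other groups. With a library left out, 4 members changed more than in the activator screen throughout and 2 to 4 more than in the PTGR screen, the lowest without PTGR unsorted replicate 1, where Zfp870 and Zfp472 were called. Reversed repressor hits were 1 within 50 kb and 2 with either sorted library left out. Within 50 kb the member share per 10000 insertions was 268 in repressor sorted, 24.7 in repressor unsorted and 19.8 in PTGR unsorted libraries. The causes were not tested.

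With the replicate number as a block, edgeR called 7 members higher in the repressor screen, without Zfp799 and Zfp563, and Zfp13 was no longer lower. The block left the count at 0 in the activator and PTGR screens and at 4 in both tests between screens. Depth limits most members: 30 of 42 had fewer than 3 repressor sorted insertions.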
